A study of Mus musculus with 12 samples.

Results

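Nucleoside mono- and diphosphate kinases are the enzymes that carry a nucleotide from its monophosphate to the triphosphate that polymerases use. The set described here is 9 genes, chosen by name, of the 24982 gene symbols measured: Nme1, Nme2, Nme3, Nme4, Nme6, Ak1, Ak3, Guk1 and Cmpk1. All 9 were found. Polyadenylated RNA had been sequenced from splenic B lymphocytes of mice aged 6 weeks. There were 3 groups of 4 libraries: wild type (WT), mice with the Eμ-Myc transgene, and mice with Eμ-Myc and a knockout of PRPS2 (Eμ-Myc; PRPS2 KO, called the knockout group below). Eμ-Myc puts Myc under the immunoglobulin heavy-chain enhancer, which drives it in B-lineage cells, and PRPS2 is a form of phosphoribosyl pyrophosphate synthetase, which supplies the activated ribose of nucleotides. The transgene is present in the knockout group too, and WT carries neither allele. The labels call the libraries biological replicates without saying whether each is a separate mouse, so p-values measure the spread between these libraries.

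De novo synthesis delivers UMP and IMP, and AMP and GMP are made from IMP, while cytidine nucleotides arise as CTP made from UTP. Monophosphate kinases, each with its own bases, then add a phosphate: GUK1 acts on GMP and dGMP, CMPK1 on UMP and CMP, AK1 on AMP in the cytosol and AK3 on AMP in the mitochondrial matrix with GTP as donor. Nucleoside diphosphate kinases of the NME family add the last phosphate to nearly any diphosphate at the expense of ATP. NME1 and NME2 form mixed hexamers and hold most of that activity in the cytosol, NME4 sits in mitochondria, NME3 is tied to the outer mitochondrial membrane, and NME6 is a distant mitochondrial member with little activity of its own.

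The values are coverage per gene, divided here by a scaling factor for each library and called scaled coverage. Genes are compared with each other on the reading that coverage is a mean per base, which the sources used here do not state. A gene was called at a limma adjusted p under 0.05, with the Benjamini-Hochberg adjustment made over every gene tested, and fold changes are on the log2(scaled coverage + 0.5) scale. Library sums of coverage ran from 1277305.5 to 1885768.9. Prps2, the deleted gene, held 18.7, 17.1, 16.2 and 15.4 in knockout libraries 1 to 4, against 198 to 285 in Eμ-Myc. Knockout libraries 1 and 2 stood apart from 3 and 4: log2 values correlated across genes with r of 0.986 and 0.996 within these pairs and 0.801 to 0.863 between them. The summed level of 8 B-cell markers was 9310 to 25474 in the 12 libraries. Markers of other cell types were present too, and of the markers fixed only the platelet gene Gp1ba was at 0 in any library. A lower sum in bulk RNA cannot tell fewer cells of a type from less RNA per cell.

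Nme1 and Nme2 lie next to each other on the minus strand of chromosome 11 (GRCm38, GENCODE M21). Nme1 spans chr11:93956979-93968521 and Nme2 chr11:93949814-93956259, with 719 bases between them. An annotated read-through gene, Gm20390, covers exons of both, 418 of the 3342 exonic bases of Nme1 and 573 of the 1171 of Nme2. Both coding sequences are 456 bases long and 366 of these bases are the same, an identity of 80.3%. Nme3, Nme4 and Nme6 are further away, with 66.3%, 64.0% and 63.5% identity to Nme1 over their aligned coding bases. The longest run shared by Nme1 and Nme2 is shown to mark the stretch of letters they have in common; it is in capitals, with 12 bases on each side in lower case, at coding bases 319 to 371 of each.
Nme1: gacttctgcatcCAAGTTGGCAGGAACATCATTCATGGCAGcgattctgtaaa
Nme2: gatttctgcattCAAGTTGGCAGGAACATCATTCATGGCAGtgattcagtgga
The run is 29 bases long, and none of the 407 windows of 50 coding bases of Nme1 occurs unchanged in Nme2. The read length and how the authors treated reads that fit several genes are not given in the sources used here, so values of this pair carry that limit.

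The E-box CACGTG, the letters that Myc with its partner Max is known to bind and its own reverse complement, was looked for in RefSeq promoter windows (GRCm38.p6, 250 bases before to 50 after each start). It stood in 7.15% of 32851 windows of all genes, and in the windows of 8.09% of gene symbols. All 9 kinases had a window, and 1 of them held the letters: Nme1, in the window of each of its 2 starts. The stretches are shown since they are the matches among these genes, with the E-box in capitals, on the minus strand at chr11:93968273-93968302 and chr11:93968037-93968066.
Nme1, first start: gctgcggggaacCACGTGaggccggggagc
Nme1, second start: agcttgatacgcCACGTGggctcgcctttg
The matches begin 18 and 29 bases upstream of their starts. The GENCODE gene reaches further upstream than either start. Of 12 other kinases of these families 10 had a window, Ak5 and Nme5 being without, and among the 10 Dtymk and Ak4 had a match, 148 and 214 bases upstream. The related letters CACGCG, read on either strand and sharing no match with CACGTG, stood in 9.27% of windows and in 1 of the 9 kinases, Nme6, 67 bases upstream of the start. These matches are descriptions of letters and no binding was measured.

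In WT cells the family was led by the cytosolic diphosphate kinases. Nme2 had the highest mean, 567 ± 49.4 (SD, n = 4 here and for each mean below), and made up 50.4% of the summed scaled coverage of the 9 genes. Nme1 at 144 ± 12.2 and Cmpk1 at 141 ± 11.1 followed, and their libraries overlapped. Guk1 at 93.3 ± 7.26 and Ak3 at 90.3 ± 6.87 overlapped as well. Nme3 at 64.6 ± 8.11, Nme6 at 14.2 ± 0.716 and Nme4 at 9.77 ± 1.19 each lay below the gene before in all libraries. Ak1, the adenylate kinase best known from muscle, was lowest, at 0.830 ± 0.293.

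In Eμ-Myc cells 7 of the 8 kinases that could be tested were called, and all 7 were higher than in WT. The background of that count is 29% of 12704 genes called higher in this comparison, and 55.8% called in either direction. The increase was largest for the mitochondrial Nme4, 6.17-fold by the limma estimate, then for Nme1, 3.28-fold, and smallest for Cmpk1, 1.32-fold. Nme3 was not called. The groups did not overlap for any of the 7 that rose, where 27.3% of all genes tested had every Eμ-Myc library above every WT library. The median log2 fold change of the 8 kinases was 1.14, and that of all genes tested -0.05.

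**Figure D1:**
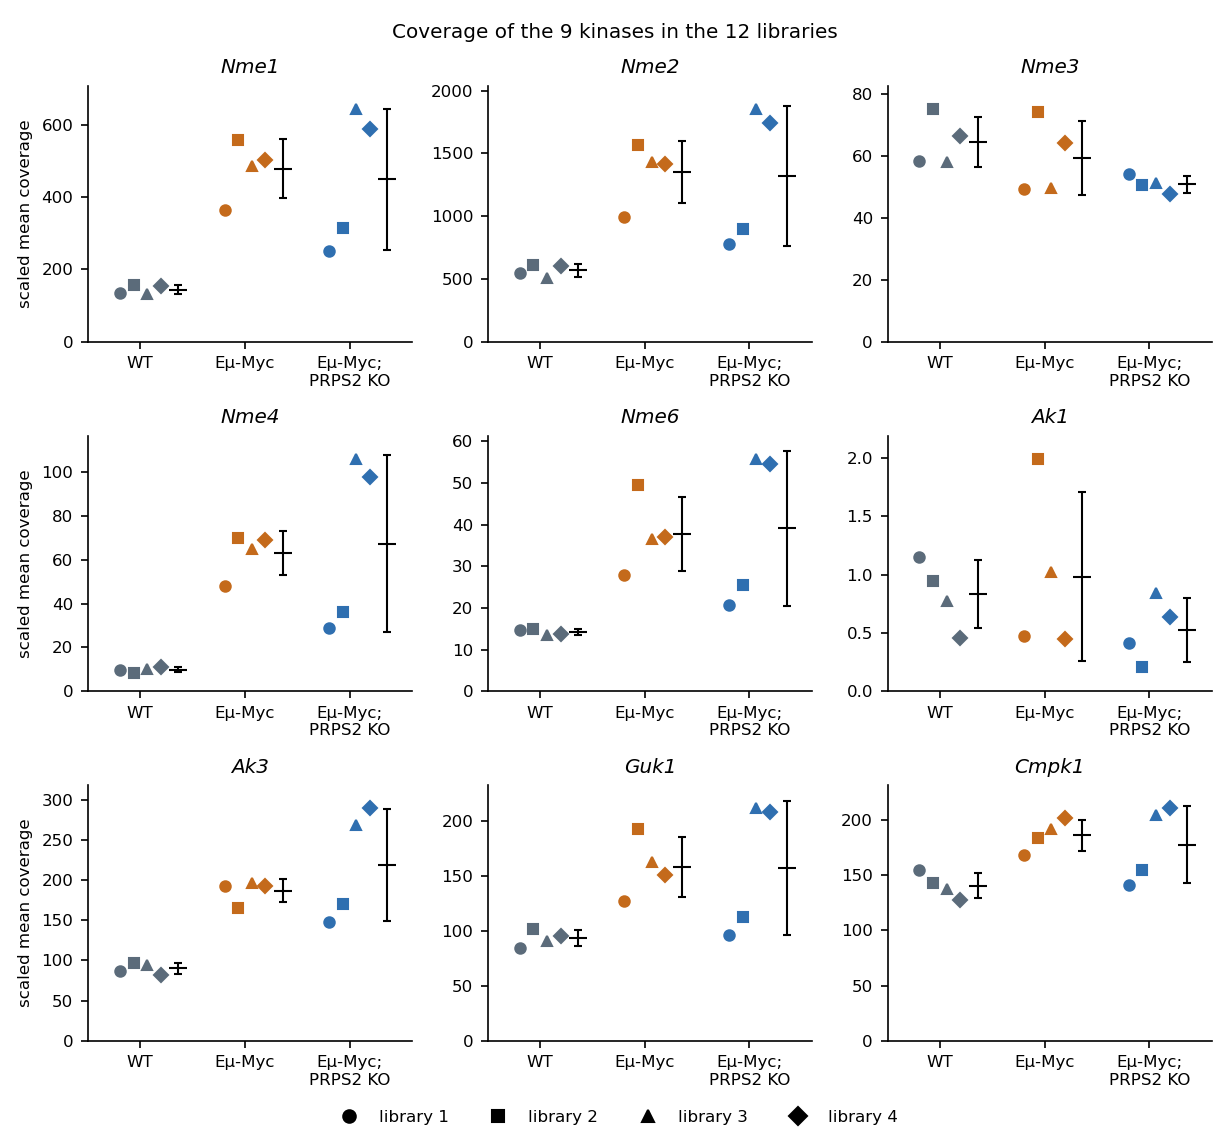
Scaled coverage (labelled scaled mean coverage, linear axis from 0) of each of the 9 kinases in WT, Eμ-Myc and Eμ-Myc; PRPS2 KO libraries. Points are libraries, marked by number, and the bars at the right of each group are mean ± SD (n = 4). All Eμ-Myc points lie above all WT points except for Nme3 and Ak1, and in the knockout group libraries 3 and 4 lie above 1 and 2 for each gene but Nme3.

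Nme1, first described as a gene low in metastatic cells, held 134, 156, 133 and 153 in WT libraries 1 to 4. In Eμ-Myc it held 364, 558, 487 and 503. The lowest Eμ-Myc library, number 1, was above each WT library, and the log2 fold change was 1.71 (SE 0.14, limma adjusted p 1.54e-05). For Nme2, which also binds DNA, WT libraries held 549, 613, 506 and 601. The Eμ-Myc libraries held 995, 1569, 1432 and 1418, again with library 1 lowest. The log2 fold change of Nme2 was 1.24 (SE 0.15, adjusted p 0.000126). The groups did not overlap for either gene.

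The rise was not equal in the pair. Nme2 coverage was 3.94 ± 0.111 times that of Nme1 in WT. It was 2.83 ± 0.0853 times in Eμ-Myc and 2.95 ± 0.109 times in the knockout group. The lowest WT ratio, 3.81, lay above the highest of the other libraries, 3.09. A ratio within a library does not depend on the scaling, and it was not tested. Nme1 and Nme2 together made up 61.1% to 65.5% of the summed coverage of the 9 kinases in WT libraries, 68.9% to 74.3% in Eμ-Myc and 67.8% to 73.5% in the knockout group.

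**Figure D2:**
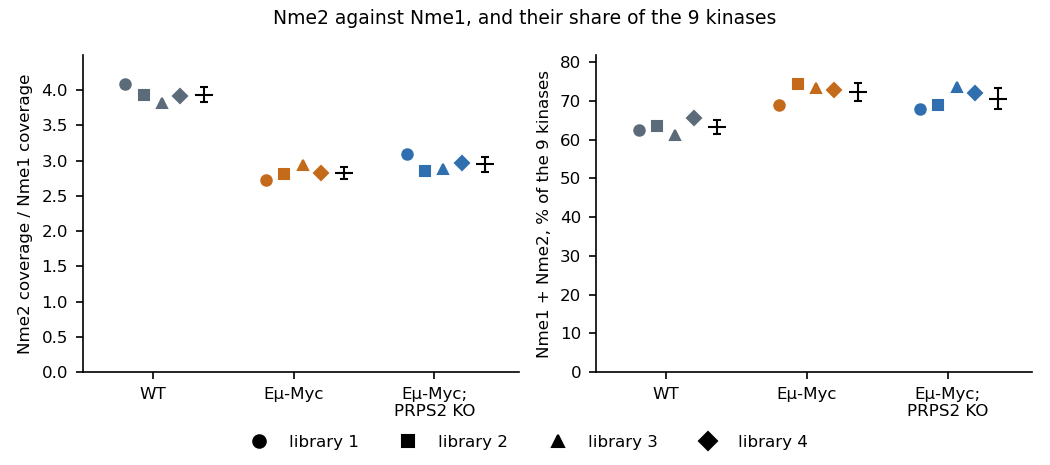
Left, Nme2 coverage divided by Nme1 coverage; right, the summed share of Nme1 and Nme2 in the scaled coverage of the 9 kinases, in percent; points are libraries marked by number, and bars are mean ± SD (n = 4), with both axes from 0. The ratio is 3.81 to 4.08 in WT libraries and 2.73 to 3.09 in the other 8.

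Nme4, at chr17:26091734-26095602 on the minus strand, moved from the second lowest place among the 9 genes to the sixth. It held 9.67, 8.22, 10.1 and 11.1 in WT and 48.3, 70.0, 65.2 and 69.3 in Eμ-Myc. Every Eμ-Myc library was more than 4 times the highest WT library, and the log2 fold change was 2.62 (SE 0.15, adjusted p 3.59e-06), above that of 98.6% of all genes tested. Nme6, at chr9:109832749-109843116 on the plus strand, held 14.7, 14.9, 13.4 and 13.8 in WT. Its Eμ-Myc libraries held 27.9, 49.4, 36.5 and 37.1, all above WT. The log2 fold change of Nme6 was 1.35 (SE 0.17, adjusted p 0.000148).

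Nme3, at chr17:24896500-24897522 on the plus strand, did not follow the other members. It held 58.4, 75.2, 58.1 and 66.6 in WT and 49.4, 74.3, 49.7 and 64.3 in Eμ-Myc, and the groups overlapped. The log2 fold change was -0.13 (95% interval -0.48 to 0.22, adjusted p 0.485), an interval that holds no doubling and no halving. Exons of Mrps34, which encodes a protein of the mitochondrial ribosome, overlap 763 of the 876 exonic bases of Nme3 on the same strand, and exons of Mapk8ip3 overlap 577 on the other strand. Mrps34 was higher in Eμ-Myc than in WT, by 0.86 (SE 0.17, adjusted p 0.00265), and Mapk8ip3 was lower, by a log2 fold change of -0.68 (SE 0.13, adjusted p 0.00235), both named here since they overlap Nme3. How shared bases were counted is not given in the sources used here, so the values of Nme3 are uncertain.

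Of the monophosphate kinases, Ak3, at chr19:29020833-29047961 on the minus strand, changed most. It held 87.2, 97.2, 94.6 and 82.2 in WT and 192, 166, 197 and 192 in Eμ-Myc, with a log2 fold change of 1.04 (SE 0.10, adjusted p 3.22e-05). The groups lay far apart and both were narrow. Cdc37l1, on the opposite strand, overlaps 430 of the 3120 exonic bases of Ak3 and had a log2 fold change of 0.00 (SE 0.13, adjusted p 0.987). Guk1, at chr11:59183875-59192212 on the minus strand, held 84.7, 102, 91.1 and 95.4 in WT and 127, 193, 163 and 151 in Eμ-Myc. Its groups did not overlap, and the log2 fold change was 0.75 (SE 0.13, adjusted p 0.00116). Cmpk1, at chr4:114959336-114987241 on the minus strand, held 154, 143, 138 and 128 in WT and 168, 183, 192 and 202 in Eμ-Myc. The highest WT library and the lowest Eμ-Myc library, both numbered 1, were close, and the log2 fold change of 0.40 (SE 0.10, adjusted p 0.00642) was the smallest among the called kinases. Ak1, at chr2:32621758-32635058 on the plus strand, ran from 0.208 to 1.99 over the 12 libraries, fell below the minimum level in each comparison and was not tested.

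**Figure D3:**
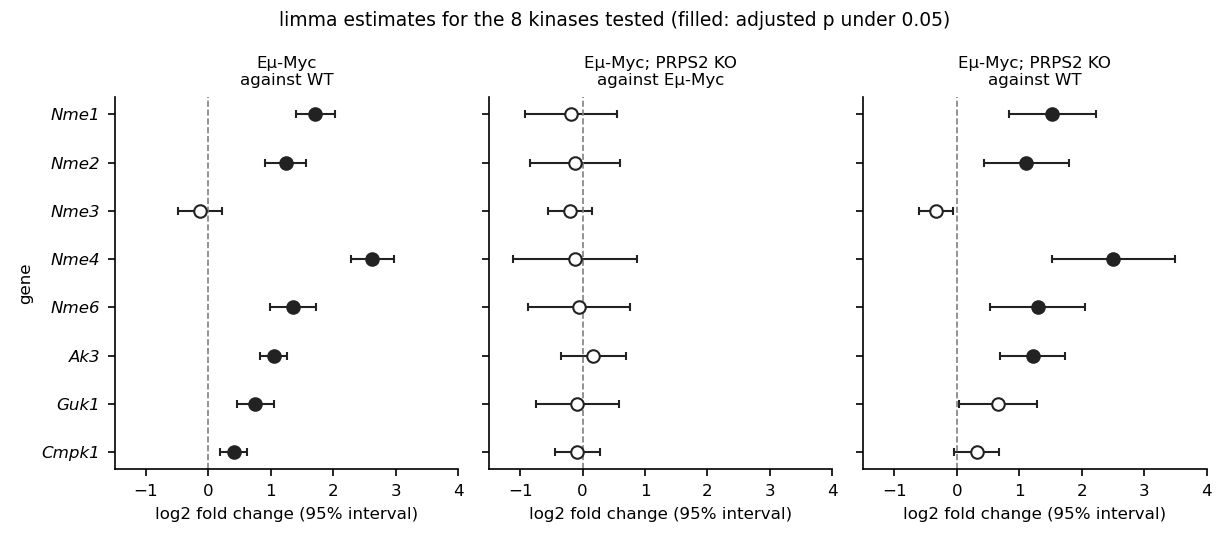
log2 fold changes of the 8 kinases tested with limma, in the 3 comparisons; points are estimates, bars are 95% intervals, and filled points have an adjusted p under 0.05. In Eμ-Myc against WT 7 points are filled, in the knockout group against Eμ-Myc none is, and against WT 5 are.

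With these changes the order of levels differed between the groups. In Eμ-Myc, Nme2 at 1353 ± 249 was above Nme1 at 478 ± 81.8 in all libraries, and Nme1 was above the rest. Ak3 at 187 ± 14.2, Cmpk1 at 186 ± 14.2 and Guk1 at 158 ± 27.0 overlapped, and so did Nme4 at 63.2 ± 10.2 with Nme3 at 59.4 ± 12.1, and Nme3 with Nme6 at 37.7 ± 8.86. Ak1 stayed lowest at 0.983 ± 0.723.

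The same libraries differed in growth markers and in markers of other cells. The summed scaled coverage of 10 proliferation genes was 451 to 596 in WT and 2211 to 2993 in Eμ-Myc, and all 10 were called higher. The sum of the 7 T-cell markers found, of 8 listed, was 632 to 3234 in WT and 144 to 203 in Eμ-Myc, and all 7 were called lower, as were all 6 NK-cell markers (328 to 1377 against 85.7 to 238). Of 9 myeloid markers (8248 to 25877 against 5720 to 16888), 9 of 10 erythroid markers found (82.1 to 876 against 92.0 to 526) and 5 early B-cell markers (8.10 to 20.6 against 39.5 to 72.6), 0, 0 and 4 were called, the last all higher. Of 5 plasma-cell markers (410 to 682 against 345 to 438) 1 was called higher and 2 lower, of 8 B-cell markers (15841 to 25474 against 13511 to 18003) 2 lower, and of 4 platelet markers tested, of 5 listed (77.1 to 381 against 68.7 to 140), 1 lower. Their part in the rise of the kinases was not tested.

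Other kinases of these families and the enzymes at neighbouring steps give the setting of the 9 genes. Of 12 further kinases 11 were among the symbols (the levels of Ak9 were not analysed here), and 6 could be tested in Eμ-Myc against WT. Higher were Dtymk, the thymidylate kinase (1.62, SE 0.13, adjusted p 1.48e-05), the nuclear adenylate kinase Ak6 (1.46, adjusted p 1.75e-05), Nme7 (1.17, adjusted p 0.00018) and Ak4 (0.83, adjusted p 0.0132). Ak4 was between 0.193 and 0.756 in WT and between 1.04 and 1.23 in Eμ-Myc, so it reached the minimum level of 1 only through the group where it is high, and its call depends on that. Cmpk2, a mitochondrial kinase known as an interferon-induced gene, was lower, at -0.56 (SE 0.15, adjusted p 0.0123), although a library of each group overlapped. Its call was lost with all 12 libraries in one fit. In that fit 3 of the 6 were called, all higher, beside 43.8% of all genes, so a higher call was lost too. Ak8 was not called (-0.40, adjusted p 0.285), and Ak5, Ak7, Nme5, Nme8 and Nme9 were below the minimum level. With Ak4 left out, 4 of 5 tested were called, 3 of them higher, and the median was 1.17, beside 1.00 with it, 1.14 for the 8 kinases described and -0.05 for all genes. The share of all genes called was 29% for higher and 55.8% for either direction.

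Of 11 enzymes at neighbouring steps 8 were called higher and 1 lower, beside 29% of all genes called higher and 55.8% in either direction. The largest were the ribonucleotide reductase subunits Rrm2 (2.91, SE 0.21, adjusted p 1e-05) and Rrm1 (2.15, SE 0.13, adjusted p 4.18e-06) and the CTP synthase Ctps (2.19, SE 0.12, adjusted p 2.74e-06). Umps, which makes UMP (1.71, adjusted p 5.29e-06), Impdh2 on the way to GMP (1.65, adjusted p 4.76e-06), Gmps (1.06, adjusted p 9.09e-05), Adsl (1.03, adjusted p 7.65e-05) and Adss on the way to AMP (0.79, adjusted p 0.000582) rose too. Their isoenzymes were not called higher with all libraries: Ctps2, the other CTP synthase, was lower (-0.43, SE 0.10, adjusted p 0.00464), and Impdh1 was not called (0.16, SE 0.20, adjusted p 0.519). Nor was the p53-induced reductase subunit Rrm2b (-0.03, adjusted p 0.903). The result of Impdh1 depends on WT library 4. Impdh1 held 95.9, 89.6, 93.3 and 176 in WT libraries 1 to 4, and 115 to 130 in Eμ-Myc. Without WT library 4, 10 of the 11 enzymes were called, 9 of them higher, beside 54.5% of all genes called. The median over the 11 was 1.06.

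**Figure D4:**
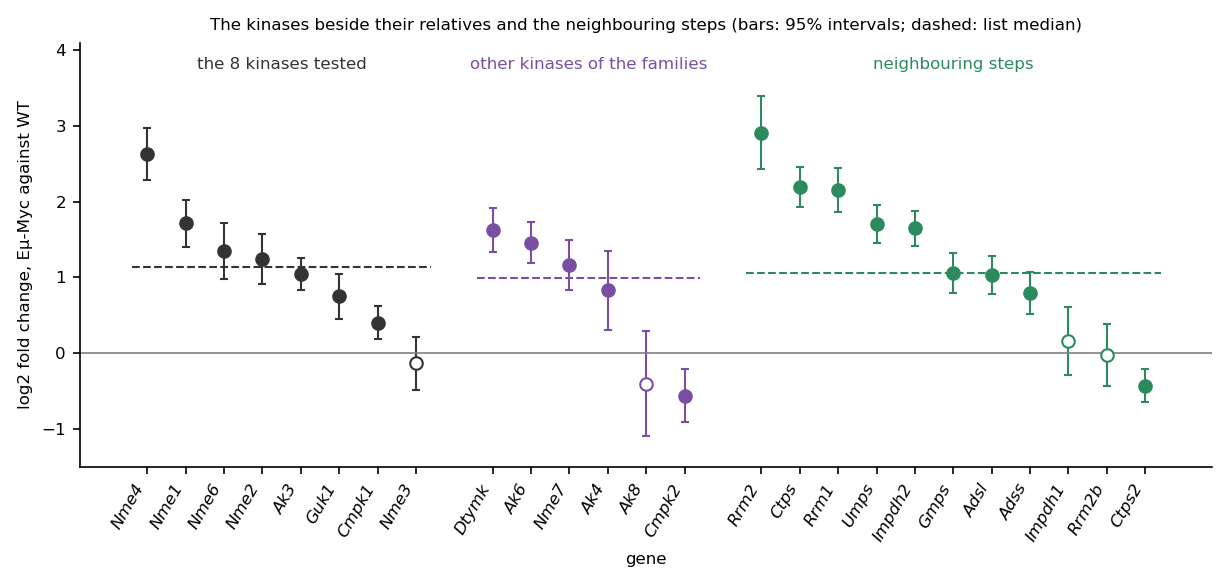
log2 fold changes in Eμ-Myc against WT for the 8 kinases tested, 6 other kinases of the same families and 11 enzymes at neighbouring steps; bars are 95% intervals, filled points have a limma adjusted p under 0.05, and dashed lines are list medians. The medians are 1.14, 1.00 and 1.06, Ak4 was tested only through its Eμ-Myc libraries, and Nme3, Ak8, Impdh1 and Rrm2b have open points.

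With PRPS2 knocked out on the Eμ-Myc background, no kinase was called with all 8 libraries weighted equally. In the knockout group against Eμ-Myc 0 of 8 were called by limma, and 0 had an unadjusted p under 0.05, where 0.00798% of 12535 genes tested were called (1 gene, Prps2) and 0.981% had an unadjusted p under 0.05. The log2 fold changes ran from -0.20 for Nme3 (95% interval -0.55 to 0.15) to 0.18 for Ak3 (-0.35 to 0.70), and each adjusted p was 1. The groups overlapped for all 8, where 1.45% of all genes tested did not overlap. The intervals were wide for most: -1.11 to 0.88 for Nme4, -0.92 to 0.55 for Nme1, -0.84 to 0.60 for Nme2, -0.87 to 0.76 for Nme6, -0.74 to 0.58 for Guk1 and -0.45 to 0.28 for Cmpk1. A p that misses the threshold does not show that the groups are alike, and for Nme4 a change in either direction by more than 1.5 times lies within the interval. Leaving out knockout libraries 1 and 2 gave 2 called kinases, both higher (Nme4 0.70, adjusted p 0.0215, and Ak3 0.58, adjusted p 0.0118), where 25.9% of all genes tested were called. Leaving out 3 and 4 gave 1, lower (Nme4 -0.94, adjusted p 0.0454), where 3.66% of all genes were called. With library quality weights 6 of 8 were called, all higher, where 55.6% of all genes were called. The direction of Nme1, Nme2, Nme4, Nme6, Guk1 and Cmpk1 was likewise unsettled: negative with all libraries, it was positive with the weights, without knockout libraries 1 and 2, and without knockout library 1 alone (0.060, 0.10, 0.21, 0.20, 0.12 and 0.018). Without knockout library 2 it was positive for Nme2, Nme4, Nme6 and Guk1, and without Eμ-Myc library 2 for Nme6 and Guk1. Ak3, positive with all libraries, was negative without knockout libraries 3 and 4 (-0.23).

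The knockout values were split by library. Nme1 held 252, 315, 643 and 589 in knockout libraries 1 to 4, and Nme2 held 778, 899, 1852 and 1743. Libraries 1 and 2 were below every Eμ-Myc library and 3 and 4 above every one, for both genes. Nme4 showed the widest split, with 28.8, 36.4, 106 and 98.0, which is 45.6%, 57.6%, 168% and 155% of the Eμ-Myc mean. Nme6 held 20.7, 25.5, 55.8 and 54.5, and Guk1 held 96.2, 113, 212 and 208. Both were again outside the Eμ-Myc range on both sides, as was Cmpk1, at 141, 154, 205 and 211, though by less. Ak3 held 148, 170, 268 and 289, with only library 1 below and 3 and 4 above the range. Nme3 held 54.2, 50.6, 51.4 and 47.6, the narrowest of the set, without the split.

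Thus 6 of 8 kinases had libraries 1 and 2 below and 3 and 4 above every Eμ-Myc library, an arrangement that 14.3% of the 12535 genes tested showed, while 15.2% showed its mirror image. This arrangement was seen in these libraries before it was counted and is a description. The spread was accordingly largest in the knockout group: the coefficient of variation of Nme1 was 8.47% in WT, 17.1% in Eμ-Myc and 43.4% with the knockout, and that of Nme4 was 12.2%, 16.1% and 59.9%. For Nme3 it was 12.6%, 20.3% and 5.31%. Knockout means were 450 ± 195 for Nme1, 1318 ± 558 for Nme2, 67.4 ± 40.4 for Nme4, 39.1 ± 18.6 for Nme6, 219 ± 70.0 for Ak3, 157 ± 61.3 for Guk1, 178 ± 35.0 for Cmpk1, 51.0 ± 2.70 for Nme3 and 0.525 ± 0.274 for Ak1. With that spread, the only neighbours in the order of levels that did not overlap were Nme2 above Nme1 and Nme6 above Ak1.

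Several other measures were split between the same libraries. Myc itself held 1126, 1724, 2866 and 3118 in knockout libraries 1 to 4, against 1551 to 2286 in Eμ-Myc. The sum of the 10 proliferation genes was 1333, 1831, 3713 and 3710, against 2211 to 2993. T-cell markers summed to 744, 798, 52.9 and 54.4 (144 to 203 in Eμ-Myc), NK-cell markers to 570, 415, 21.1 and 19.8 (85.7 to 238), and myeloid markers to 15889, 11594, 2886 and 1256 (5720 to 16888). B-cell markers summed to 16199, 15813, 9310 and 9587 (13511 to 18003), plasma-cell markers to 391, 463, 101 and 101 (345 to 438), and early B-cell markers to 42.6, 42.8, 29.4 and 27.5 (39.5 to 72.6). Erythroid markers, at 111, 94.6, 127 and 133 (92.0 to 526), and platelet markers, at 130, 32.4, 31.8 and 36.8 (68.7 to 140), were not split in this way. So the libraries with high kinase values had high Myc and proliferation genes and low sums of T-cell, NK-cell, myeloid, plasma-cell, B-cell and early B-cell markers. The part of these differences in the kinase values was not tested.

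**Figure D5:**
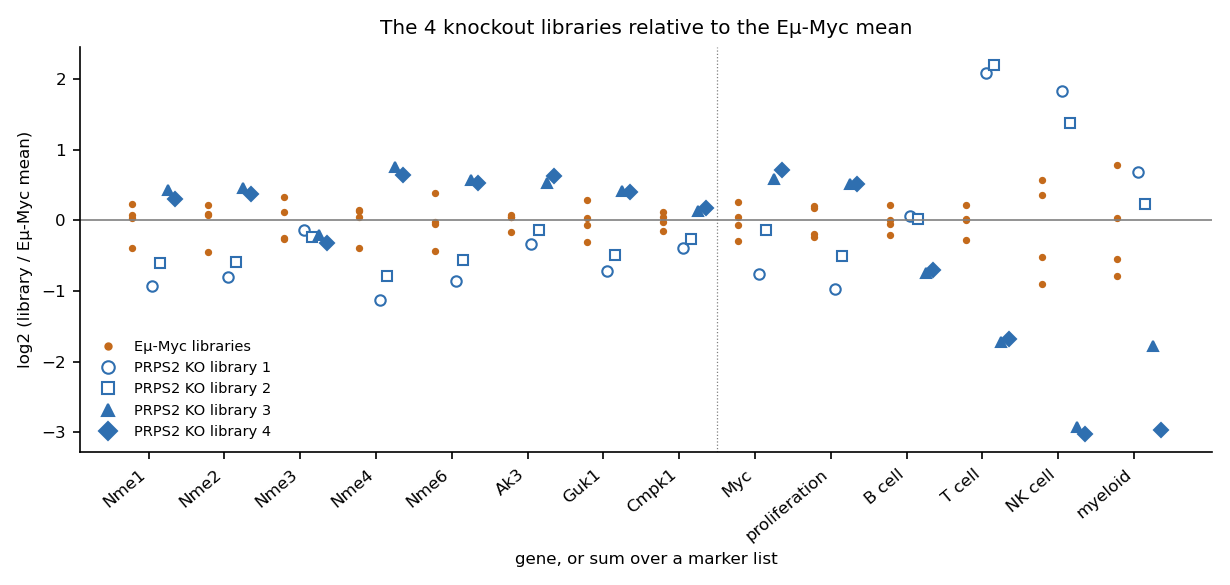
log2 of each library over the Eμ-Myc mean, for the 8 kinases tested, Myc, and the sums of 5 marker lists; orange points are the 4 Eμ-Myc libraries, open blue symbols knockout libraries 1 and 2, and filled blue symbols 3 and 4. For 6 kinases the open symbols lie below and the filled symbols above all orange points, and T-cell and NK-cell sums are arranged the other way.

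The other kinases and the neighbouring steps were not called either, 0 of 7 and 0 of 11, and 0 of these had an unadjusted p under 0.05. Their knockout libraries were arranged like those of Nme1 in Ak4, Ak6, Dtymk and Nme7 and in Adss, Adsl, Gmps, Impdh2, Umps, Ctps, Rrm1 and Rrm2, which is 4 of 7 and 8 of 11, beside 14.3% of all genes tested. Others leaned the opposite way: Ak7, Ak8, Cmpk2 and Ctps2 were below the Eμ-Myc range in libraries 3 and 4 and not below it in 1 and 2. Dtymk, for one, was at 53.3%, 63.8%, 133% and 129% of the Eμ-Myc mean. Ak4 had the widest range, with 0.312, 0.833, 5.17 and 5.06 in knockout libraries and 1.04 to 1.23 in Eμ-Myc. Rrm2b, not called in any comparison, lay within the Eμ-Myc range in all 4 knockout libraries.

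Against WT, 5 of the 8 kinases were called higher in the knockout group, where 19.7% of 12692 genes tested were called higher and 30.8% in either direction. These were Nme4 (2.51, SE 0.43, adjusted p 0.0103), Nme1 (1.53, SE 0.30, adjusted p 0.0155), Nme6 (1.30, SE 0.33, adjusted p 0.0284), Ak3 (1.22, SE 0.23, adjusted p 0.013) and Nme2 (1.12, SE 0.29, adjusted p 0.0309). Their knockout libraries, also the low ones, were all above WT. This comparison shares its WT libraries with that of Eμ-Myc and WT, so the estimates stand side by side and are not independent. Guk1 (0.67, SE 0.27, adjusted p 0.0842) and Cmpk1 (0.32, SE 0.16, adjusted p 0.132) were not called, and knockout library 1 lay within the WT range for both. Nme3 was below every WT library in every knockout library, by a log2 fold change of -0.33 (SE 0.12, adjusted p 0.0607), which misses the threshold. Groups did not overlap for 6 of 8 kinases, and for 38.2% of all genes tested. The median log2 fold change of the 8 was 1.17, and of all genes -0.07.

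The calls of Nme2 and Nme6 against WT depend on single libraries. Each was lost without any one of the 4 WT libraries and without knockout library 3 or 4, with adjusted p of up to 0.0848 and 0.0797, while their log2 fold changes stayed between 0.92 and 1.33 and between 1.09 and 1.56. The call of Nme1 was lost without WT library 3 (adjusted p 0.0534). Without knockout library 1, Guk1 (adjusted p 0.0192), Cmpk1 (0.0427) and Nme3 (0.0459, lower) were called as well. Calls over all genes moved in these fits too, with shares given below. They were 3904 with all 8 libraries, 787 to 1654 in the fits that lost kinase calls, and 6753 without knockout library 1. Ak3 and Nme4 kept their calls in all 8 of these fits. In Eμ-Myc against WT no kinase gained or lost a call when any library was left out.

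Of the other kinases Dtymk (1.45, SE 0.31, adjusted p 0.0184), Ak6 (1.30, adjusted p 0.0246) and Nme7 (1.02, adjusted p 0.0285) were called higher in the knockout group than in WT, 3 of 5 tested, beside 19.7% of all genes. Of the neighbouring steps 8 were called higher, led by Rrm2 (2.73, SE 0.35, adjusted p 0.0084), Ctps (2.13, adjusted p 0.00873) and Rrm1 (2.08, adjusted p 0.0094), and Ctps2 was lower (-0.51, SE 0.13, adjusted p 0.0271), so that 9 of 11 were called, beside 30.8% of all genes in either direction. These calls depended on single libraries. Without WT library 1, 2 or 3 or knockout library 4, 0 of the 5 other kinases and 5 neighbouring steps were called. The share of all genes called fell in these fits too, to 8.87%, 6.26%, 6.34% and 6.64% in that order. Without knockout library 3 there were 1 and 5, beside 6.84% of all genes. Without WT library 4 there were 1 and 7, beside 13.2%, and without knockout library 1 there were 5 and 9, beside 54.1%. All 10 proliferation genes were called higher, as were 4 of 5 early B-cell markers, and 4 of 5 platelet markers were called lower. Of the T-cell and NK-cell markers 0 of 7 and 0 of 6 were called by limma, with 4 and 2 at an unadjusted p under 0.05. All had negative log2 fold changes, with medians of -3.25 and -2.58, beside -3.03 and -2.15 in Eμ-Myc against WT, where all were called.

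Across the 12 libraries, Nme1, Nme2, Nme4, Nme6, Ak3, Guk1 and Cmpk1 varied together, with Pearson r of log2 values between 0.871 and 0.991 for each pair. Nme3 had negative r with these 7, from -0.587 with Ak3 to -0.236 with Guk1. The points share their 3 groups and the split of the knockout libraries, so these values describe the libraries. Among 9653 genes whose scaled coverage averaged at least 8, the patterns most like those of the diphosphate kinases were Nhp2, Erh and Dtymk for Nme1 (r 0.998 to 0.999), Pycrl, Aimp1 and Snrpg for Nme2 (0.997 each), Slc29a1, Wdr12 and Tubg1 for Nme4 (0.997 to 0.998), Polr2f, Mrps18a and Uqcr11 for Nme6 (0.995 to 0.997) and Ifi35, Grcc10 and Fau for Nme3 (0.913 to 0.942). For the monophosphate kinases they were Jpt2 and Khsrp for Ak3 (0.991 to 0.993), Uqcc2, Mrps14 and Nsfl1c for Guk1 (0.991 to 0.992), and Mycbp, Calm3 and Tuba1c for Cmpk1 (0.977 to 0.983). Those of Ak1, Dynlt1f, Tpgs1 and Gpank1 (0.885 to 0.914), follow values close to the rounding of the files.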

How the data were processed

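The authors deposited, for each of the 12 libraries, a value per gene called coverage and given to 1 decimal, with 24982 symbols in each. Of the values above 0, 91.6% were not whole. Per the submitters' processing notes the build was mm10, and DESeq and R 4.3.3 were used, with no role named. The aligner, the counting step and the use of strand are not given in the sources used here; the kit was directional, per the labels' protocols. No read depth is known for these values, so precision was taken from the spread between libraries. The members and gene lists were chosen with earlier results of these data known.

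One factor per library came from unweighted trimmed means of log ratios (30% of ratios and 5% of means trimmed at each end). Genes were fitted where 4 or more of the 8 libraries of a comparison had a scaled coverage of 1 or more, with limma 3.58.1 in R 4.3.3 on log2(scaled coverage + 0.5), with trended, robust empirical Bayes, two-sided, Benjamini-Hochberg over all genes tested. Named were all 9 members, Prps2, Myc, the tested genes of 2 related lists and, per member, the 3 genes of highest Pearson r (symbols of the Gm and Rik type left out); a few results under this rule are not reported here, and the list counts leave them out. Mrps34, Mapk8ip3 and Cdc37l1 were added for their overlap with members after the data had been seen. Sequences and positions came from RefSeq (GRCm38.p6) and GENCODE M21 tables, read with Python 3.11.15, pandas 2.3.3, numpy 2.4.6, Biopython 1.88 and matplotlib 3.10.9.

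On simulated data spread like the Eμ-Myc libraries, 72.2% of genes changed by a log2 of 1 and 93.4% of those changed by 2 were recovered, with 5.71% false among calls. With the spread of the knockout libraries these were 37.1%, 69.6% and 5.64% (10 draws each, 12399 to 12502 genes). Every gene was drawn independently, with the same spread in both groups. The split that many genes share in the knockout libraries, and the narrower spread of the group set against them, were not simulated. The rates are therefore not those of the knockout comparisons. Same-numbered knockout and Eμ-Myc libraries deviated together (r 0.658, 0.192, 0.254 and 0.607 for numbers 1 to 4, all over 0.1). Libraries of unlike number were not compared, so these r cannot show that libraries are paired by number. Same numbers were treated as pairs in a fit with a replicate block, and the labels state no pairing. Other scalings, filters, pseudocounts of 0.1 and 2, all 12 libraries in one fit, library quality weights, each library left out in turn and either knockout pair left out were tried.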

Additional observations from a re-analysis of the deposited data

Results flagged for a closer look

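Of the 33 sets of 4 values examined (the 9 kinases, the Nme2 to Nme1 ratio and the summed share of that pair, in 3 groups), 1 held a library far from the others. Ak3 was 166 in Eμ-Myc library 2, while the other 3 Eμ-Myc libraries held 192 to 197. The gap took up 0.845 of the range of the group, above Dixon's 95% limit for 4 values, and chance gives such a gap in about 1 of 20 sets. Library 2 was the highest Eμ-Myc library for Nme1, Nme2, Nme3, Nme4, Nme6 and Guk1. Without it, the log2 fold change of Ak3 against WT stayed past the threshold.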

How the results depend on the processing

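In Eμ-Myc against WT the 7 kinase calls held under 17 alternatives, except that Nme4 could not be tested when every library had to reach 10, which left 6. Scaling by total coverage moved the median of all genes by -0.14 and the share of higher calls from 52.1% to 42.0% (3057 of 7284 genes), and kept all 7. One fit of all 12 libraries called 3 of 6 other kinases, against 5, beside 43.8% of all genes, against 55.8%. The 3 were all higher, against 4 higher and 1 lower, so Cmpk2 and a higher kinase lost their calls. In the knockout group against Eμ-Myc, library quality weights, which were 3.08 and 8.18 for knockout libraries 3 and 4, 0.085 and 0.13 for 1 and 2 and 0.31 to 4.80 for the Eμ-Myc libraries, called 6969 genes, 6 kinases, 5 other kinases and 8 neighbouring steps, and turned Nme1 (0.32), Nme2 (0.35), Nme4 (0.62), Nme6 (0.58), Guk1 (0.41) and Cmpk1 (0.12). Without knockout libraries 1 and 2 there were 3151 genes, 2 kinases, 2 other kinases and 5 neighbouring steps, with Nme1 at 0.38, Nme2 0.43, Nme4 0.70, Nme6 0.57, Guk1 0.42 and Cmpk1 0.16. Without 3 and 4 there were 454 genes and 1 kinase, with Nme1 at -0.75, Nme2 -0.67, Nme4 -0.94, Nme6 -0.68, Guk1 -0.59 and Cmpk1 -0.33, and Ak3 turned to -0.23. Leaving out single libraries gave no kinase call there, with ranges of -0.39 to 0.060 (Nme1), -0.32 to 0.10 (Nme2), -0.41 to 0.21 (Nme4), -0.27 to 0.20 (Nme6), -0.25 to 0.12 (Guk1) and -0.17 to 0.018 (Cmpk1). The replicate block, with same-numbered libraries as pairs, changed no kinase call there and left 1 gene called.

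Against WT, the knockout group gave 3904 genes, and 6097 with all 12 libraries in one fit, 10607 with weights, 8651 without knockout libraries 1 and 2 and 1423 without 3 and 4. These are 83.6%, 70.4% and 11.4% of genes tested for the last 3. The fit of all 12 libraries called Guk1 as well (limma adjusted p 0.0433), which gave 6 kinases, beside 48% of all genes. Kinase calls were 8 with weights and 8 without libraries 1 and 2 (7 higher and Nme3 lower in each), with 5 other kinases in each, and 5 kinases without 3 and 4. Without 1 and 2, Nme1, Nme2, Nme4, Guk1 and Cmpk1 were at 2.10, 1.67, 3.33, 1.17 and 0.56, and without 3 and 4 at 0.97, 0.56, 1.69, 0.16 and 0.073. Leaving out single libraries gave 787 to 6753 genes, 2 to 8 kinases, 0 to 5 other kinases and 5 to 9 neighbouring steps. Deviations of same-numbered libraries had r of mixed sign here (0.397, -0.422, 0.137 and -0.063), and libraries of unlike number were not compared. With a replicate block 1936 genes (15.3%) and 3 kinases were called. Nme2 (limma adjusted p 0.0529) and Nme6 (0.0533) lost their calls there, with log2 fold changes still at 1.12 and 1.30. Total coverage scaling gave Nme3 -0.42 (adjusted p 0.0454). Causes were not tested. Without the filter Ak1 stood at 0.07, -0.45 and -0.39 in the 3 comparisons, none called.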
